A study of Mus musculus with 12 samples.

Results

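Of the accessible chromatin regions found in the livers of all 3 groups of mice, 2543 ranked lower in Sham mice than in both Control and VSG mice. They were chosen by their measured FAIRE-seq signal. The peak lists of the 3 groups were merged into a union of 59246 regions, of which 32716 held a peak of every list and 28434 of these were under 1000 bp. Within each list, the highest peak signal in a region was turned into a percentile from 0 to 1 among these 28434 shared regions. A member had a Sham percentile at least 0.2 below the Control percentile and at least 0.2 below the VSG percentile, which 8.94% of shared regions met. The opposite rule, with Sham higher than both by at least 0.2, was met by 2522 regions (8.87%).

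The samples came from livers of male C57BL/6J mice, with 2 mice per group for FAIRE-seq and RNA-seq of the same livers. Control mice ate standard chow for 28 weeks and had no surgery. Sham and VSG mice began a high-fat diet (60% of calories from fat) at 8 weeks of age, ate it for 14 weeks before and 14 weeks after the operation, and had liquid food for the first 4 days after it. VSG (vertical sleeve gastrectomy) removed about 80% of the stomach, whereas in Sham mice the stomach was exposed and pressed but kept. Control mice therefore differ from Sham mice in diet and in surgery together.

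FAIRE-seq enriches DNA that formaldehyde does not hold to nucleosomes, so its peaks mark promoters, enhancers and insulators that proteins keep open. Promoters of widely used genes mostly lie in CpG islands, stretches rich in G, C and unmethylated CpG dinucleotides that Sp and Klf factors bind. Enhancers of hepatocytes are mostly poorer in GC and are bound by factors such as FOXA, C/EBP and HNF4A, while CTCF binds insulators and the anchors of chromatin loops.

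Each peak list pools the 2 mice of its group, so the ranks have no error from replicates and no test between groups was possible on them. The Sham list stood apart from the other lists. It held 52881 peaks with a median signal of 0.398, against 42204 peaks and 0.252 in Control and 44539 peaks and 0.298 after VSG. Across the 28434 shared regions, which are measured in all 3 lists and are not independent samples, the rank correlation of the signal was 0.816 for Control and VSG, 0.775 for Sham and VSG and 0.688 for Control and Sham. How deeply these libraries were sequenced is unknown.

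The sequences below show the kinds of DNA among members with large drops: repeats, DNA at gene starts, and DNA away from genes that holds a CTCF motif. All are from the mm9 build on the plus strand. In the first 6, capitals mark CpG dinucleotides. In the last 2, chosen after their values were seen from the larger drops with the motif in unrepeated sequence, capitals mark the CTCF core. No window overlaps an annotated UTR. The Acot4 and Ddah2 windows were likewise added after the values were seen, to show gene starts that are mostly unrepeated.
Near Gm10106, chr9:3032411-3032710: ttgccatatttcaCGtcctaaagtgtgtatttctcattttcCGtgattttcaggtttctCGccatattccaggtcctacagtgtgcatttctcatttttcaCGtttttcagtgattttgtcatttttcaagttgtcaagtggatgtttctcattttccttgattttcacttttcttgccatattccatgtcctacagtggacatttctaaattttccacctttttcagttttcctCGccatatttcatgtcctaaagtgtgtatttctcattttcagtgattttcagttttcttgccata
Near Gm11167, chr9:3020419-3020656: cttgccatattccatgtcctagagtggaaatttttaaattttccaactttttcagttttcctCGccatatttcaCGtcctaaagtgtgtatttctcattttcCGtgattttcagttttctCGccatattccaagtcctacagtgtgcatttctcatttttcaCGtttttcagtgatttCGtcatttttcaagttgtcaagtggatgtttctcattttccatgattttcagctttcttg
Chromosome Y, chrY:2884542-2884833: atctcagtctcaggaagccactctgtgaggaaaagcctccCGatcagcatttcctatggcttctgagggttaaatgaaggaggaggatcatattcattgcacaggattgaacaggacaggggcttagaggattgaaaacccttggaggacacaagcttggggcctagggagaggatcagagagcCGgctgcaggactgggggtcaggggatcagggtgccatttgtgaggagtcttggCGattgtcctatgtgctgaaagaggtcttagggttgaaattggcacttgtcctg
Ankrd9 promoter, chr12:112216829-112217049: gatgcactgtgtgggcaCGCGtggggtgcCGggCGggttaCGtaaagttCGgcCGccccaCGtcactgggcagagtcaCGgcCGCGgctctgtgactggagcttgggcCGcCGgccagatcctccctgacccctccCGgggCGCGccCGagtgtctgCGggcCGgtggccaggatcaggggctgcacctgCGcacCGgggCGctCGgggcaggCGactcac
Acot4 start, chr12:85379740-85380039: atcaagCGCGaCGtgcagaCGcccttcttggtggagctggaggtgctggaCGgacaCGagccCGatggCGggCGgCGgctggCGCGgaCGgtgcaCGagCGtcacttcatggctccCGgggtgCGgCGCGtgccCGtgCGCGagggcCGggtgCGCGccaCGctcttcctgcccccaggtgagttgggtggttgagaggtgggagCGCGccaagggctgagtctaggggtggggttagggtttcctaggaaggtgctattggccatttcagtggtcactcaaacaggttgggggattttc
Ddah2 promoter, chr17:35196421-35196720: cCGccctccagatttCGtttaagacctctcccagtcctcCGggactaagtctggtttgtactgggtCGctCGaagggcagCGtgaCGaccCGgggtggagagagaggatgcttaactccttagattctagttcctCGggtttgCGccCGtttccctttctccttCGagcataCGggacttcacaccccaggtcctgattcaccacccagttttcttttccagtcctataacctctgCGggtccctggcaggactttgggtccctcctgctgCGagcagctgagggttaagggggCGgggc
Intergenic, chr12:100322456-100322755: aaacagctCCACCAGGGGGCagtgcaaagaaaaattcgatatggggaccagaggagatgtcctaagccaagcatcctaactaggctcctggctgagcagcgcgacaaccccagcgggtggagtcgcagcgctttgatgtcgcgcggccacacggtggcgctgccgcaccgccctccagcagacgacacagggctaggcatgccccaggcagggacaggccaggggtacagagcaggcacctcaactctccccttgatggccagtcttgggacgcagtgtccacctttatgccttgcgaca
Intergenic, chr2:34501736-34502035: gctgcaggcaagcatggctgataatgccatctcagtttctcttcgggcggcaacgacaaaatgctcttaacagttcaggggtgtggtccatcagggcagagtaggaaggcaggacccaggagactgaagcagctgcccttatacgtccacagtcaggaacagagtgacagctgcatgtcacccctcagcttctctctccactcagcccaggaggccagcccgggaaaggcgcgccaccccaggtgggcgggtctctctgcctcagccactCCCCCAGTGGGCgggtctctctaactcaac
The windows near Gm10106 and Gm11167 lie in the same tandem repeat of chromosome 9, with a GC content of 35.3% each. The Ankrd9 window, the longest stretch of that region outside UTRs and off its centre, was 73.3% GC with 24 CpG dinucleotides in 221 bp. The 300 bp around the midpoint of the same region were 62.3% GC with an observed-to-expected CpG ratio of 0.378.

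The very largest drops were mostly in repeats. Of the 10 members with the largest smaller drop (the lower of Control minus Sham and VSG minus Sham), 8 lay in sequence of which 50% or more of the 31-base words occurred elsewhere in the genome, as did 10 of the top 20 and 15 of the top 100. The region near Gm10106 (chr9:3032354-3032767), 476 bp downstream of its TSS, had a percentile of 0.952 in Control, 0.144 in Sham and 0.929 after VSG, and its smaller drop of 0.785 was the largest of all members. The region near Gm11167 (chr9:3020419-3020656) had 0.983 in Control, 0.218 in Sham and 0.943 after VSG. The intergenic region on chromosome Y (chrY:2884542-2884833) had 0.860 in Control, 0.00849 in Sham and 0.724 after VSG. In these regions Control and VSG were both in the upper part of the ranking and Sham near its bottom.

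Of the 10 members with the largest smaller drop, the other 2 lay at the starts of Ankrd9, with no repeated words, and of Acot4, with 40% of words repeated. The Ankrd9 promoter (chr12:112216404-112217061, 56 bp from the TSS) had almost the same percentile in Control and VSG, 0.683 in each, and 0.0883 in Sham mice. The start of Acot4, which encodes a peroxisomal acyl-CoA thioesterase (chr12:85379702-85380078), had 0.678 in Control, 0.0893 in Sham and 0.750 after VSG. The promoter of Ddah2, an enzyme that breaks down methylarginines (chr17:35196382-35196845), had 0.598, 0.00791 and 0.579 in the same order. An example away from promoters, the intergenic region nearest to Ankrd45 (chr1:163100922-163101182, 28154 bp from its TSS) had 0.646 in Control, 0.0698 in Sham and 0.694 after VSG. VSG was above Control at Acot4 and Ankrd45 and below it at Ddah2.

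**Figure D1:**
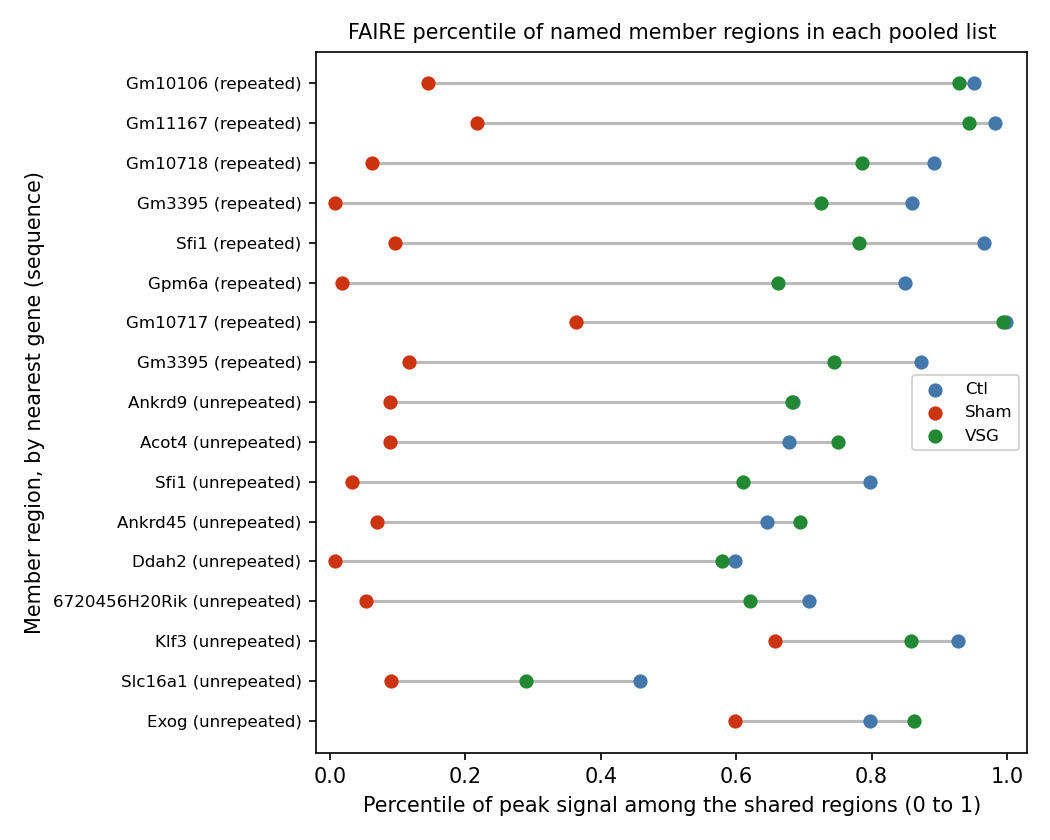
Percentile of the FAIRE-seq peak signal (0 to 1, horizontal axis) of 17 member regions in the Control (Ctl), Sham and VSG lists, named by their nearest gene and by whether 50% or more of their 31-base words are repeated. Gray lines join the Sham point to the higher of the other points, and the last 3 regions are those just inside the threshold, such as Exog with 0.798 in Control, 0.598 in Sham and 0.862 after VSG.

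Among all members the median percentile was 0.615 in Control, 0.244 in Sham and 0.595 after VSG. The median difference was 0.320 for Control minus Sham and 0.305 for VSG minus Sham, and 904 members had a drop of at least 0.3 and 46 of at least 0.5. These values follow from the rule. Control and VSG were within 0.1 of each other in 1764 members (69.4%), in 57.4% of the regions higher in Sham and in 52.4% of all shared regions, and since the rule set both above Sham their closeness is not independent of it. VSG was the higher in 1134 members (44.6%) and in 49.2% of all shared regions. On the deposited signal scale, where Sham values were mostly higher, the Sham signal was still below both others in 738 members (29%). The threshold itself separated like values. The region 137 bp from the Exog TSS, at a drop of 0.20006, was a member, while the intronic region near Rtbdn, with 0.470 in Control, 0.119 in Sham and 0.319 after VSG and a drop of 0.199989, was not.

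The length covered by peaks was lowest in Sham in members and highest in Sham in all shared regions. Its median in members was 404 bp for the Control list, 367 bp for Sham and 371 bp for VSG, whereas over all shared regions it was 349, 388 and 335 bp. Peak length comes from the same signal as the ranks and is not independent of the rule. In 2451 members (96.4%) each list contributed exactly 1 peak, close to the 96.7% of all shared regions.

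Members lay mainly at promoters, a feature the rule did not use. Every annotated transcript start of a gene counted as a TSS, also one inside the gene. A TSS lay within 1000 bp of the midpoint in 1458 members, 57.3% (95% Wilson interval 55.4 to 59.2%), against 32.5% of all shared regions and 8.25% of the regions higher in Sham. Introns held 15.5% of members and 31.9% of shared regions, and intergenic DNA held 22.9% and 31.9%. Within promoters the position was not shifted, with the median midpoint at -10 bp from the TSS in members and at -8 bp in all shared promoter regions. Such intervals cover counting error only, because regions of one library are not replicates.

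Members were rich in GC and in CpG dinucleotides. The median GC content of the 300 bp around the midpoint was 62% in members, 53.7% in all shared regions and 49.3% in the regions higher in Sham. CpG-rich windows (GC over 50% and an observed-to-expected CpG ratio over 0.6) made up 54.5% of members (52.5 to 56.4%), 24.9% of shared regions and 1.19% of the regions higher in Sham. CpG richness went with membership away from promoters too. Of the 1040 CpG-rich regions farther than 1000 bp from a TSS, 261 were members (25.1%), whereas 824 of 18161 regions without it were (4.54%). At promoters the shares were 18.6% of 6048 CpG-rich and 10.5% of 3185 other regions.

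The share of members was higher in each successive GC class from 40% upward. It was 1.14% of regions of 40 to 45% GC, 3.73% at 50 to 55%, 10.1% at 55 to 60%, 18.8% at 60 to 65% and 27.2% at 70% or more. Above 55% GC, promoters were not members more often than other regions of like GC, apart from a small difference at 55 to 60%. At 55 to 60% GC, 10.3% of promoter and 9.99% of other regions were members, and at 65 to 70% the shares were 23.5% of 1961 promoter and 35.8% of 254 other regions. Below 55% GC promoters had the higher shares. These were 4.34% against 3.64% at 50 to 55% and 2.74% of 73 against 0.991% of 807 at 40 to 45%. The 95% Wilson intervals overlapped in each class from 40 to 55%. At 35 to 40% the counts were 4 of 13 against 0 of 45, and under 35% they were 5 of 6 against 2 of 11. All members under 40% GC lay in the stretch of chromosome 9 described below. The relation of the ranks to GC extended over all shared regions. The median Control minus Sham difference went from -0.17 at 40 to 45% GC to 0.12 at 70% or more and the median VSG minus Sham difference from -0.15 to 0.18, whereas VSG minus Control was between -0.028 and 0.030. The Spearman correlation of GC with the difference was 0.443 for Control minus Sham, 0.566 for VSG minus Sham and 0.0577 for VSG minus Control, over 28434 regions that share 3 libraries. The part of GC content in the ranks was not tested, and with 1 pooled list per group the Sham condition and the Sham libraries cannot be told apart.

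**Figure D2:**
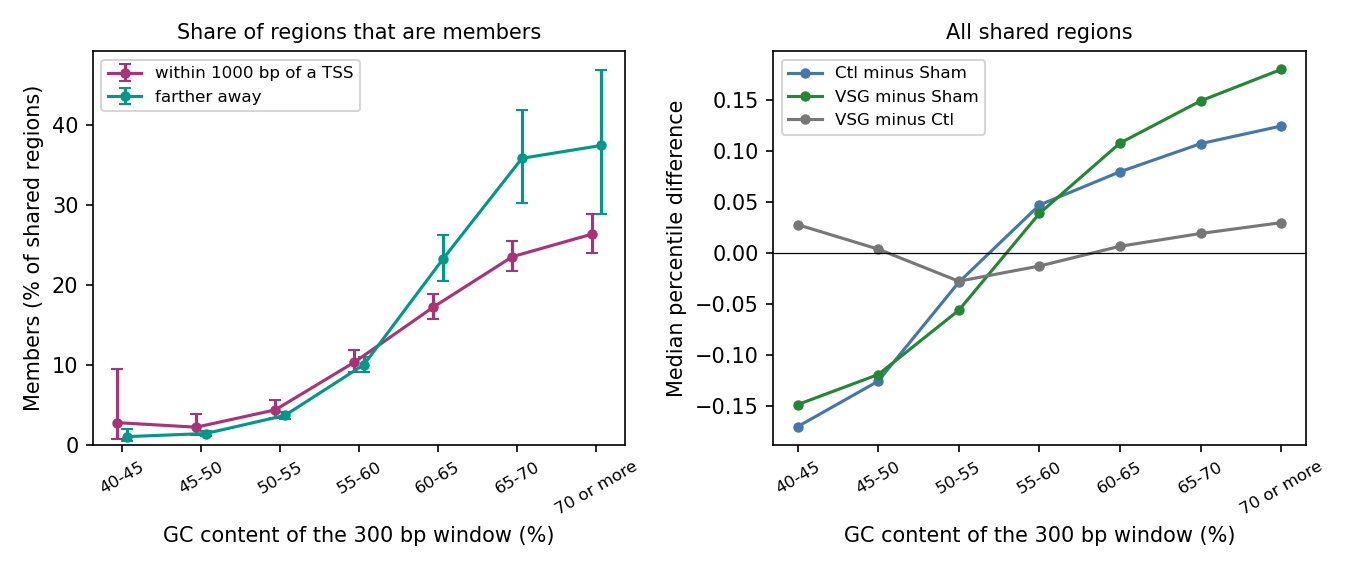
Left, share of shared regions that are members (%) by GC content of the 300 bp window (%), within 1000 bp of a TSS and farther away, with 95% Wilson intervals. Right, median percentile difference of all shared regions in the same GC classes. Within 1000 bp of a TSS the member share is 2.74% at 40 to 45% GC and 26.3% at 70% or more. Farther away it is 0.991% and 37.4%, and VSG minus Control stays near 0.

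Ranking regions within classes of equal GC, an alternative chosen after the data were seen, gave another set. Percentiles were taken within 5-point GC classes, with all regions under 45% and all at 70% or more in 1 class each. The same rule was then met by 1518 regions, 726 of them members (28.5% of the members and 47.8% of the 1518). The share at promoters was then 19.6%, below the 32.5% of all shared regions, and the CpG-rich share was 10.3%, below 24.9%. The excess of promoters and CpG-rich DNA among members was present with ranks over all regions and absent with ranks within GC classes. Ranking within classes removes differences between them, and CpG richness is partly defined by GC, so this loss was in part built in.

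**Figure D3:**
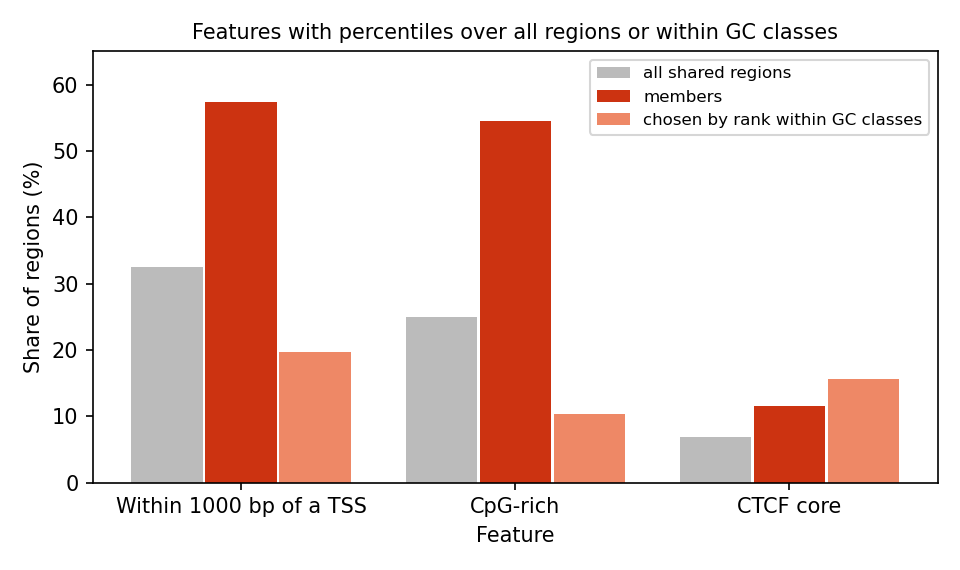
Share of regions (%, vertical axis from 0) that lie within 1000 bp of a TSS, are CpG-rich or hold the CTCF core, in all 28434 shared regions, in the 2543 members and in the 1518 regions that meet the rule when percentiles are taken within GC classes. Promoter and CpG-rich shares fall below those of all shared regions in the last set, and the CTCF core share is 15.6%.

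Motifs were counted as letters on either strand in the 300 bp windows, and a match is not evidence of binding. The GC box GGGCGG, the site of Sp and Klf factors, was in 51.4% of members and 24.3% of the other shared regions. Within promoters of equal GC the shares were alike, with 62.7% of members and 63.3% of other regions at 60 to 65% GC. Away from promoters members held it more often at 50 to 65% GC, with 50.3% against 39.4% at 60 to 65%, and less often at 65 to 70%, with 61.5% against 71.2%. The CCAAT box of NF-Y was less frequent in members. At promoters it was in 22.9% of members and 36.4% of other regions, and it was below the other regions in each GC class from 50 to 70%, with 27.1% against 38.3% at 60 to 65%. The long palindromic core of NRF1, a regulator of mitochondrial and growth genes, was in 7.75% of member promoters and 7.15% of other promoters, and away from promoters in 2.3% of members (1.57 to 3.38%) and 0.486% of other regions. The shares of this core at equal GC were not computed.

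Letters of hepatocyte enhancer factors were less frequent in members. Away from promoters the C/EBP letters TTGC, any 2 bases and AA were in 10% of members and 16.8% of other regions, and the FOXA letters TGTTTAC in 2.67% and 6.44%. The nuclear receptor core AGGTCA was in 19.7% and 33.5%, the HNF4A letters CAAAG followed directly by TCCA in 0.645% and 2.4%, and the AP-1 letters TGANTCA in 5.99% and 11.6%. At equal GC the C/EBP letters were still less frequent in members at 50 to 55% (12.3% against 16.9%) and at 55 to 60% (9.02% against 11.1%), and more frequent at 60 to 65% (9.74% against 7.76%) and 65 to 70% (8.79% against 7.36%). The FOXA letters were less frequent in members from 50 to 65% GC, with 2.32% against 6.39% at 50 to 55%, and more frequent at 65 to 70%, in 3 of 91 members against 2 of 163 other regions. AP-1 letters remained less frequent in members away from promoters in every GC class from 50 to 70%, with 5.63% against 11.7% at 50 to 55%.

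The CTCF core, searched as CCNCNAG followed directly by NNGGC, was more frequent in members. It was in 11.5% of members and 6.37% of other shared regions. Away from promoters it was in 17.8% of the 1085 members (15.6 to 20.2%) and 7.27% of other regions, and regions with it were members in 12.8% of 1510 cases against 5.04% of 17691 without it. The excess away from promoters was present at equal GC, with 18.9% against 7.56% at 50 to 55%, 19.1% against 8.48% at 55 to 60% and 17.9% against 5.9% at 60 to 65%. At 65 to 70% it was 13.2% against 7.98%, with overlapping 95% intervals. At promoters the shares were 14.5% (8 of 55 members) against 3.88% at 50 to 55% GC and 6.07% against 4.67% at 65 to 70%. The 95% intervals at promoters overlapped in each class from 55 to 70%. Among the regions chosen by ranks within GC classes the core was in 17.5% of those away from promoters, against 7.86% of all shared regions there. The intergenic region on chromosome 12 printed above (chr12:100322405-100322807) had percentiles of 0.559 in Control, 0.0662 in Sham and 0.643 after VSG. The one on chromosome 2 (chr2:34501560-34502212), nearest to Mapkap1, had 0.652, 0.157 and 0.641.

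**Figure D4:**
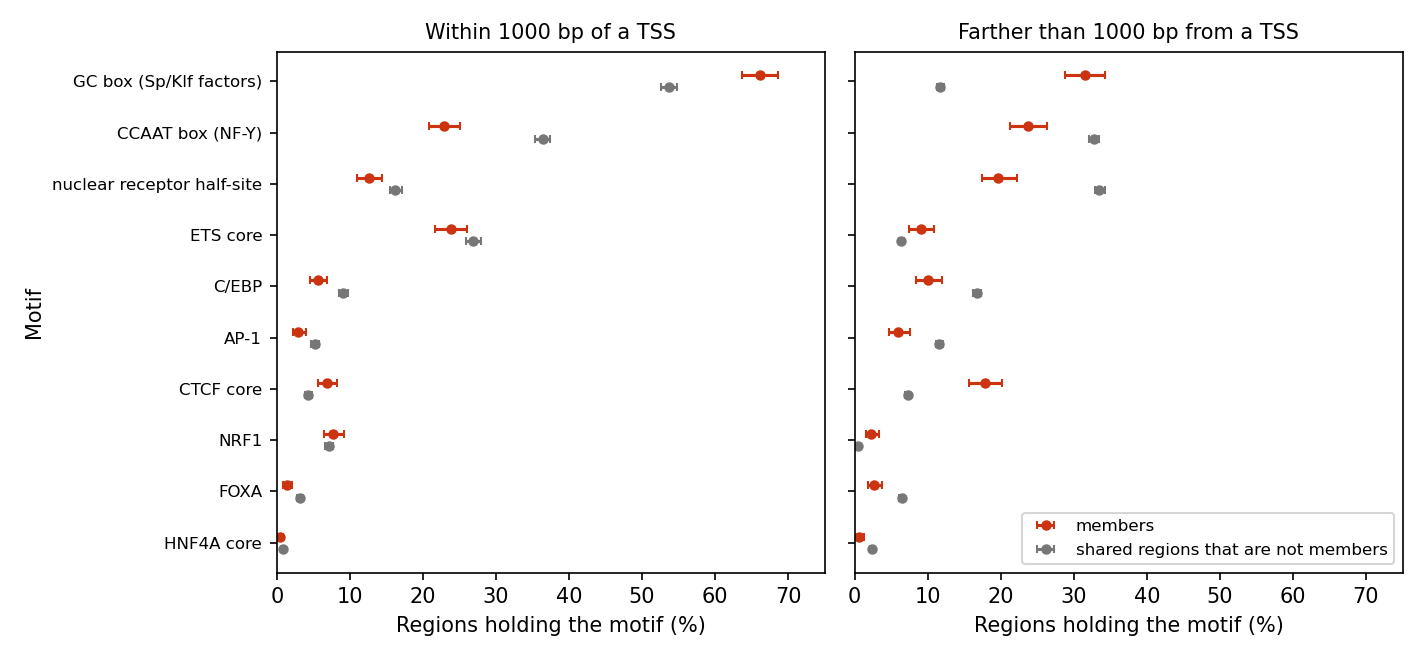
Share of regions (%) that hold each motif on either strand in the 300 bp window, in members and in shared regions that are not members, at promoters (left) and farther from a TSS (right), with 95% Wilson intervals. Away from promoters the CTCF core is in 17.8% of members and 7.27% of other regions.

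Few members were in repeated sequence, but they held the extremes of the ranking. In 42 members (1.65%) and 315 shared regions (1.11%) at least 50% of the 31-base words were repeated, and ranking without these regions gave 2525 members, of which 57.8% lay at promoters. Where the median word had 10 or more copies in the genome, 26 of 89 regions were members (29.2%), against 8.88% of the rest. The first assembled stretch of chromosome 9 (chr9:3001955-3032767) held 15 shared regions, of which 11 were members with a GC content of 34 to 37%. The DNA at the far end of this stretch, the only part compared, matched itself best at a shift of 234 bp, with an identity of 75.9%, which is the unit length known for the major satellite of mouse centromeres. The signal of these 11 members was 0.559 to 2.09 in Control, 0.241 to 0.847 in Sham and 0.582 to 2.59 after VSG.

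Members also clustered at 3 other places. The start of the assembled chromosome 11 around Sfi1 (chr11:3025922-3085225) held 26 shared regions and 18 members, with smaller drops of 0.204 to 0.685. On chromosome Y 7 of 10 shared regions were members, and on chromosome 8 (chr8:19707379-20020584) 4 of 9 were. In both of these places the members had 67.0% to 100% of words repeated. The authors kept only FAIRE-seq reads with a unique match in the genome. In near-identical copies the signal therefore rests on the reads that match 1 copy alone, and these values are uncertain. Outside the 4 clusters 2503 of 28374 regions were members, and a shared region with another member within 10 kb was itself a member in 310 of 2294 cases. Over whole chromosomes the share of members was 7% to 11.4% on the autosomes and chromosome X, with chromosome 11 the highest.

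Members included most of the shared regions that the deposited site lists call less accessible in Sham. Those lists rest on the same livers and contrasts as the rule, and the overlap is therefore a description. The list of reversible sites lower in Sham holds 175 sites, which overlapped 71 shared regions (0.25% of them), and 57 of these were members. The list of sites higher in VSG than Sham holds 414 sites, which overlapped 142 shared regions (0.499%), and 97 were members. Of these members, 38 of 57 and 67 of 97 lay at promoters. The overlaps were 2.24% and 3.81% of the members. Sites listed as higher in Sham overlapped only 6 (reversible) and 7 (Sham against VSG) shared regions. No member was among these regions, and since members must rank lower in Sham this follows from the rule.

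At the level of genes, 1412 of the 7733 genes with a shared region within 1000 bp of a TSS had a member there (18.3%). Transcript starts inside a gene are included in these counts and in those of the lists below. For fatty acid and triglyceride synthesis this was 5 of 14 genes. Scd1, the desaturase that makes monounsaturated fatty acids, had a promoter percentile of 0.763 in Control, 0.238 in Sham and 0.614 after VSG. Lpin1, a phosphatidate phosphatase of triglyceride synthesis, had 0.703, 0.380 and 0.762. The member of Srebf1, the transcription factor of lipogenic genes, lay at chr11:60022540-60023349, well inside the gene (chr11:60012591-60036083, minus strand). Its nearest TSS, 911 bp away, was that of a transcript that starts inside the gene. The percentiles of this member were 0.713, 0.274 and 0.552.

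Among immediate early genes, which growth and stress signals switch on within minutes, 4 of 12 had a member. The Myc promoter had 0.714 in Control, 0.315 in Sham and 0.656 after VSG, and the Egr2 region had 0.379, 0.0899 and 0.624. Klf4 and Nr4a3 were the others, with Sham percentiles of 0.324 and 0.212. Circadian clock genes had 4 of 14, with 0.642, 0.262 and 0.616 at Nfil3, a repressor of clock output. Of the acute phase and inflammatory genes 4 of 18 had one, namely Stat3, Slpi, Il1r1 and Tlr2. The members of Stat3 and Il1r1 lay at transcript starts far inside these genes. At Tlr2, a receptor for bacterial lipoproteins, the percentiles were 0.601, 0.232 and 0.571.

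Members were found at 6 of 24 promoters of liver transcription factors, 10 of 40 of proteasome and ubiquitin genes, 6 of 29 of splicing factors, 5 of 33 of mitochondrial energy genes, 5 of 34 of chromatin regulators and 3 of 34 of ribosomal proteins. The Celf1 promoter, of an RNA-binding splicing regulator, had 0.454 in Control, 0.0209 in Sham and 0.426 after VSG and overlapped a reversible site. So did the promoter of Cox4i1, a subunit of cytochrome c oxidase, with 0.644, 0.388 and 0.799. In the other lists, cholesterol synthesis and uptake had 2 of 14 (Scarb1 and Srebf2), fatty acid oxidation 1 of 17 (Ehhadh), glucose and insulin signalling 1 of 24 (Akt2) and endoplasmic reticulum stress 1 of 11 (Trib3). The members of Scarb1 and Akt2 lay at transcript starts far inside these genes. Bile acid genes had 0 of 13, drug- and lipid-metabolizing Cyp genes 0 of 14, heat shock genes 0 of 8, cell cycle genes 0 of 25 and hepatocyte markers 0 of 5. The lists are small, and the share over all genes with a shared promoter region was 18.3%.

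RNA-seq, which the rule did not use, was then read for the genes with a member at their promoter. Of the 1356 such genes in the expression table, 937 (69.1%) had 1 FPKM or more in 2 or more mice, against 75.6% of 6082 genes with a shared promoter region and no member. Their median FPKM was 2.44 against 3.51. In such bulk samples fewer cells of a type and less RNA per cell cannot be told apart.

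With all 6 mice, the RNA of genes with a member at their promoter passed the tests no more often than that of all genes. In the limma fit across all transcripts at an FDR of 10%, 0 of 937 genes were called for Sham minus Control, where 0.194% of 9265 genes were, 0 for VSG minus Sham (0.0216% of all) and 0 for Sham minus the mean of Control and VSG (0.0971% of all). At an unadjusted p under 0.05 in limma, 49 were higher and 37 lower in Sham than Control mice, 5.23% and 3.95%, with 5.72% and 4.09% over all genes. For VSG minus Sham 25 were higher and 11 lower, 2.67% and 1.17%, with 3.11% and 1.36% over all genes. For Sham minus the mean of the others 22 were higher and 33 lower, 2.35% and 3.52%, with 2.74% and 4.1% over all genes. Each of these 6 shares was slightly below that over all genes. The balance of higher and lower depended on single mice and on scaling. For Sham minus Control the lower genes numbered 100 without Sham mouse 2, 15 without Control mouse 1 and 19 without Control mouse 2. For VSG minus Sham the counts were 70 higher and 27 lower without Sham mouse 1, 83 and 9 without Sham mouse 2, and turned to 11 and 38 without VSG mouse 2. They were 16 higher without either Control mouse, 22 lower without VSG mouse 1, and 18 and 18 with each mouse centred on its median. For Sham minus the mean the lower genes numbered 61 and 94 without Sham mouse 1 and 2 and 18 without Control mouse 1, and the higher genes 34 without Sham mouse 1 and 37 on leaving out VSG mouse 2, when 24 were lower. The median log2 difference of the 937 genes was -0.0016 for Sham minus Control, 0.097 for VSG minus Sham and -0.034 for Sham minus the mean, with 0.030, 0.089 and -0.016 over all genes.

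Single mice decided the counts at the FDR level. Without Sham mouse 2 the limma fit called 9, 2 and 8 of the 937 genes in the same order of contrasts, against 1.31%, 0.367% and 1.17% of all genes, and without any other single mouse it called 0 of them. Over all genes, the 18 calls for Sham minus Control became 0 without either Control mouse, 1 on leaving out VSG mouse 1 and 3 on leaving out VSG mouse 2. With a single Sham mouse left, that mouse is assumed to vary like the other groups.

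Among the genes with the smallest p-values, those lower in Sham at the RNA level included Abcb10, a mitochondrial transporter needed for heme synthesis. Its FPKM was 6.95 and 6.30 in Control, 1.41 and 1.18 in Sham and 5.81 and 7.81 after VSG, so that Sham did not overlap the other groups. The log2 difference of Sham from the mean of the others was -1.74 (SE 0.23, limma adjusted p = 0.161). The member at its promoter (chr8:126506661-126507359, 12 bp from the TSS) had percentiles of 0.696 in Control, 0.362 in Sham and 0.747 after VSG. On the deposited signal scale the values were 0.371, 0.429 and 0.534, so that Sham was lower than Control in rank only.

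Ctu2, a subunit of a tRNA-thiolating enzyme, was listed at 0 in both Sham mice, with an FPKM of 1.83 and 2.75 in Control and 2.61 and 2.31 after VSG (Sham against the mean of the others, limma adjusted p = 0.198). An exact 0 in such a table can be a failed estimate. Dynll2, a dynein light chain, had 61.6 and 63.7 in Control, 27.5 and 22.9 in Sham and 42.9 and 42.8 after VSG (log2 difference of Sham minus Control -1.29, SE 0.20, limma adjusted p = 0.148). Upp2, a uridine phosphorylase of liver, had 182 and 173 in Control, 15.9 and 5.91 in Sham and 45.1 and 145 after VSG (Sham minus Control, limma adjusted p = 0.184). Fam89b had 7.80 and 7.43, 3.13 and 3.01, and 6.76 and 7.66 in the same order (Sham against the mean of the others, limma adjusted p = 0.298). In all 5 genes both Sham mice were below every other mouse, although none passed the adjusted threshold.

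Other genes with a member at their promoter had higher RNA values in Sham than in Control mice, and none passed the adjusted threshold. Slpi, a protease inhibitor secreted by epithelia and leukocytes, had an FPKM of 0.157 and 0.315 in Control, 8.31 and 16.3 in Sham and 2.36 and 0.741 after VSG (log2 difference of Sham minus Control 3.36, SE 0.49, limma adjusted p = 0.140). Its member, 705 bp upstream of the TSS (chr2:164215389-164215682), had percentiles of 0.415 in Control, 0.00250 in Sham and 0.320 after VSG, opposite in direction to the RNA. Cldn1, a tight junction protein, had 6.68 and 4.78 in Control, 19.4 and 22.8 in Sham and 14.8 and 14.5 after VSG (Sham minus Control, limma adjusted p = 0.140). Il17rb, a receptor of interleukin 25, was listed at 0 in all Control and VSG mice and had 5.36 and 20.7 in Sham mice (Sham against the mean of the others, limma adjusted p = 0.217). Bid, a pro-apoptotic protein, was listed at 0 in both Control mice and had 3.40 and 4.2 in Sham and 3.43 and 5.11 after VSG (Sham minus Control, limma adjusted p = 0.133). Sbno2 had 6.20 and 6.31 in Control, 6.54 and 13.6 in Sham and 1.01 and a listed 0 after VSG (VSG minus Sham, limma adjusted p = 0.400).

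**Figure D5:**
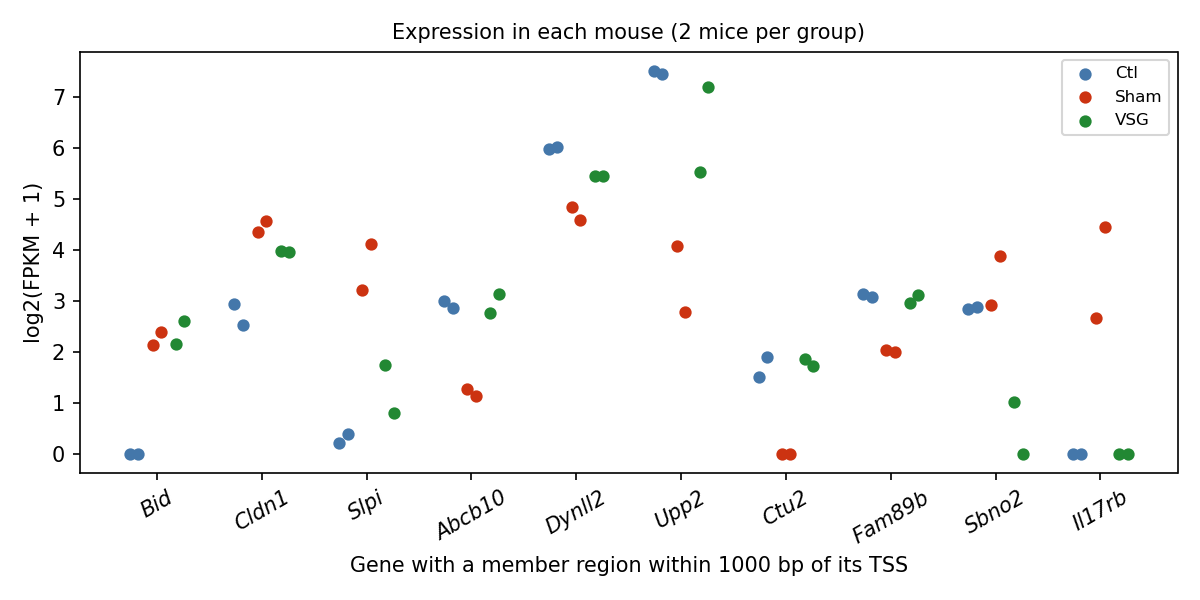
Expression as log2(FPKM + 1) of 10 genes with a member region at their promoter, 1 point per mouse, in Control (Ctl), Sham and VSG mice. Abcb10, Dynll2, Upp2, Ctu2 and Fam89b are lowest in both Sham mice. Slpi, Cldn1, Il17rb and, narrowly in 1 Sham mouse, Sbno2 are highest there, and no gene passes the adjusted threshold.

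Some genes of the lists, such as Scd1, varied widely between mice of a group. Scd1 had an FPKM of 1123 and 308 in Control, 27.7 and 4.32 in Sham and 74.1 and 5.12 after VSG, with a limma adjusted p of 0.379 for Sham minus Control. Both VSG mice were below both Control mice. Lpin1 had 56.7 and 85.5 in Control, 2.13 and 10.3 in Sham and 4.74 and 2.82 after VSG, again with VSG near Sham. Tlr2 had 0.638 and 0.399 in Control, 2.60 and 2.94 in Sham and 0.853 and 1.24 after VSG, and Myc had 3.60 and 1.89, a listed 0 and 3.16, and 0.793 and 0.661. Rpl7 had 374 and 320, 390 and 335, and 307 and 350, so that its groups overlapped.

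Farther from promoters, 1 gene passed the FDR of 10% with all 6 mice. Cyp2b10, a drug-oxidizing enzyme that is the classic target of the nuclear receptor CAR, was named after its values were seen. Its FPKM was 8.46 and 8.81 in Control, 0.0389 and 0.00900 in Sham and 0.135 and a listed 0 after VSG, and the log2 difference of Sham minus Control was -3.23 (SE 0.27, limma adjusted p = 0.0419). The call was lost on leaving out any single mouse except Sham mouse 2, with limma adjusted p-values of 0.114 to 0.438, and with a pseudocount of 0.1 (limma adjusted p = 0.123), while the difference without each mouse was -3.26 to -3.21. A member lay 4256 bp upstream of its TSS (chr7:26678202-26678564) with percentiles of 0.621 in Control, 0.30 in Sham and 0.703 after VSG. The RNA of VSG mice was as low as that of Sham mice (VSG minus Sham 0.06, limma adjusted p = 1), while the region ranked above Control. Within 100000 bp, 1 of 1359 genes nearest to a member was called for Sham minus Control, against 0.194% of all genes.

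Summed markers of some other liver cell types separated Sham from the other groups, without a test. The summed FPKM of 5 neutrophil markers, 3 of which reached an FPKM of 1 in a mouse while Ly6g was listed at 0 in all, was 14.7 and 5.74 in Control, 42.2 and 45 in Sham and 22.5 and 16.7 after VSG. The sum of 6 sinusoidal endothelial markers was 43.4 and 19.3 in Control, 8.71 and 6.08 in Sham and 32.1 and 28.1 after VSG, and that of 6 Kupffer cell markers ranged from 11.4 to 37.1 apart from 145 in VSG mouse 2. Stellate cell markers summed to 17.4 and 30.7 in Sham and 46.5 to 65.2 in the other mice, so that Sham did not overlap, as with the neutrophil and endothelial sums. Hepatocyte markers summed to 15137 to 21848, cholangiocyte markers to 1.63 to 4.58 and lymphocyte markers to 0.473 to 2.89. No gene of the neutrophil, endothelial, Kupffer cell, cholangiocyte or lymphocyte lists had a shared region at its promoter, the 1 stellate cell gene that did had no member, and the part of these cells in the ranks and in the RNA of genes such as Slpi was not tested.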

How the data were processed

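FAIRE-seq and RNA-seq were measured in livers of 2 Control, 2 Sham and 2 VSG mice. Reads were aligned by the authors to mm9, and FAIRE-seq reads without a unique match were dropped. The authors used F-seq for the peak signal in the deposited lists, at a feature length of 250 bp, with peaks kept by IDR between the 2 mice of a group. The deposited FPKM values were estimated by the authors per RefSeq transcript. Deposited tables of the authors' DESeq2 comparisons hold fold changes and p-values and were not used, and the deposited site lists give positions.

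Peaks were merged where they overlapped or touched. TSSs of protein-coding and lincRNA genes, exons and sequence came from NCBIM37 (mm9) with GENCODE annotation, in Python 3.11.15 with pandas 2.3.3, numpy 2.4.6, scipy 1.17.1 and pysam 0.24.0. Of 34933 transcripts, 30409 found a gene of that annotation. log2(FPKM + 1) of transcripts at 1 FPKM or more in 2 or more mice was fitted with limma 3.58.1 in R 4.3.3 over all 6 mice with a trend, and p-values were adjusted by Benjamini-Hochberg over 11511 transcripts. A gene was read by its transcript with the highest mean FPKM. With 2 mice per group p-values measure only the spread between these mice. RNA depth is not given, and low FPKM values put it at 0.681 to 1.55 times that of Control mouse 1.

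The members, the 25 gene lists and the 23 motifs were chosen with earlier results of these data known. Regions named are the 10 members with the largest smaller drop, up to 10 that overlap a listed site, and 3 on each side of the threshold. Genes named are those nearest to them, those past the FDR, the 3 with the smallest p in each direction of each contrast and up to 4 per list by mean FPKM. Printed sequences follow the drop, with further repeats of chromosome 9 left out. The scripts were tested on simulated data.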

Additional observations from a re-analysis of the deposited data

How the results depend on the processing

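The number of members followed the threshold, with 3891 at a difference of 0.15, 1564 at 0.25 and 904 at 0.3, and was 1485 with peaks of at least 250 bp only. The share within 1000 bp of a TSS was 62.3% at a difference of 0.3, 62.1% with regions of any length, 42% under 500 bp, 72.6% with peaks of at least 250 bp and 59.7% with equal numbers of peaks. It was 50.5% with a TSS within 500 bp and 64.3% within 2500 bp. The CpG-rich share was 58.1% at 0.3, 58.5% with any length, 38.7% under 500 bp, 67.8% with peaks of at least 250 bp, 50.9% with log2 signals and 47.6% with stricter CpG limits. In each of these the members' share stayed above that of all shared regions. The CTCF core was in 9.52% of 200 bp windows, in 6.86% of members at promoters and in 17.8% of those farther away. With percentiles within GC classes, chosen after the data were seen, the members numbered 1518, with 19.6% at promoters, 10.3% CpG-rich, a median GC of 52% and 15.6% with the CTCF core. The cause of the other shifts was not tested.

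Genes called in RNA numbered 1 for Sham minus Control with a pseudocount of 0.1 (Bid), and 1 in every contrast without a filter (Sned1). With TSSs up to 10000 bp and up to 100000 bp it was 1 (Cyp2b10) for Sham minus Control. Leaving out each mouse gave 0 to 9 calls for Sham minus Control, 0 to 2 for VSG minus Sham and 0 to 8 for Sham minus the mean. The replicate block gave 0 calls among these genes in all 3 contrasts, and 4 of 9265 genes over all in Sham minus Control, without Cyp2b10 (limma adjusted p = 0.174). Deviations of mice with the same number correlated at 0.115 for Control and Sham, 0.0862 for Control and VSG and 0.115 for Sham and VSG, so the numbers were not taken as pairing, and a call lost under the block is not read as a weaker effect.

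The pooling of 2 mice per list and the unknown depth limit the ranks. Reads that match several copies of a repeat, or several paralogs such as the Acot genes, cannot be assigned to 1 copy.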
